A study of Mus musculus with 44 samples.

Results

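The libraries compared here were made with Tag-Capture-C from 200 ng and from 50 ng of the same kind of 3C library, 3 libraries at each input and 6 of the 44 libraries of the series. Membership was read from the labels, and each was read from 3 viewpoints, the promoters of Hba-a1 with Hba-a2 (α-globin), of Hbb-b1 with Hbb-b2 (β-globin) and of Slc25a37. All 6 libraries came from Ter-119+ erythroid cells of the spleens of female C57BL/6 mice, which had received 3 doses of 40 mg/g phenylhydrazine at intervals of 12 h and were killed after 5 days, and the cells had been fixed with 2% formaldehyde. The labels give no genetic change and no age for the mice, and the sources used here describe the 3 libraries of an input both as aliquots and as biological replicates, so that p-values measure only the spread between these libraries, which may be technical. The comparison asks what a 4-fold lower input does to the share of interactions in cis, to their decay with distance and to the shape of the local profile.

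A 3C library is made from fixed nuclei, whose DNA is cut with the restriction enzyme DpnII at GATC and ligated again, so that fragments that lay close together become joined. In Tag-Capture-C a transposase cuts this DNA and adds the sequencing adaptors in the same reaction, and oligonucleotides then capture the joints that hold a viewpoint. Interactions on the viewpoint's own chromosome are called cis and all others trans, and in cis their number falls with distance except at the elements a promoter contacts in these cells. In erythroid cells the α-globin promoters contact a cluster of enhancers that lies on one side of the genes, at lower coordinates, and the adult β-globin promoters contact the locus control region, at higher coordinates. Slc25a37 encodes mitoferrin-1, which carries iron into mitochondria for haem synthesis.

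The deposited values are counts of unique interactions per DpnII fragment, and at the globin loci those of the 2 promoters had been added together. The viewpoint fragments are absent from each table and leave gaps. In the coordinates of the tables, for which the submitters' processing notes name the build mm9, the gaps are chr11:32182317-32184781 and chr11:32194990-32197598 at α-globin, 12.7 kb apart from centre to centre. They are chr7:110961283-110963273 and chr7:110975292-110977138 at β-globin, 13.9 kb apart, and chr14:69902161-69904393 at Slc25a37. Fragments within 250 kb of a viewpoint (distances run from centre to centre) are called local here, and 1106, 1083 and 1138 of them are listed at α-globin, β-globin and Slc25a37.

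The promoters of a pooled pair are more alike at α-globin than at β-globin. The 250 bases before the start of each gene are given here 5′ to 3′ as RefSeq lists them for the build GRCm38.p6, which names the adult β-globin genes of this strain Hbb-bs and Hbb-bt, with capitals at bases that differ from the other promoter of the pair or face a gap in their alignment. They lie at chr11:32283422-32283671 on the plus strand (Hba-a1), chr11:32296242-32296491 on the plus strand (Hba-a2), chr7:103827929-103828178 on the minus strand (Hbb-bs) and chr7:103813924-103814173 on the minus strand (Hbb-bt).
Hba-a1: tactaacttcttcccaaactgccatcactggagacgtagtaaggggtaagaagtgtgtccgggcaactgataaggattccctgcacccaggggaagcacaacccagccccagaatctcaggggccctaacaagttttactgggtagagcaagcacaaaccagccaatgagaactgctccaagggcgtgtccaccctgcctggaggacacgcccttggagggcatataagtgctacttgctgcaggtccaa
Hba-a2: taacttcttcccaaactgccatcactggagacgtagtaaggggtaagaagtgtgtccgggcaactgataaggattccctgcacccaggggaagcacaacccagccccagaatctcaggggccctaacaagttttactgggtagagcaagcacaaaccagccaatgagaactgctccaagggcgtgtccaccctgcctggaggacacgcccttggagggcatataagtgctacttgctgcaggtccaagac
Hbb-bs: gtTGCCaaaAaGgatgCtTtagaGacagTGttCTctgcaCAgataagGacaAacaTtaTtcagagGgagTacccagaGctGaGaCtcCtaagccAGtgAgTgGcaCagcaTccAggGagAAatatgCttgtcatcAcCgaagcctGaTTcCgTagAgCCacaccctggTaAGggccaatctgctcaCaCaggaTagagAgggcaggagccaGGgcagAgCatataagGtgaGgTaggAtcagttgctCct
Hbb-bt: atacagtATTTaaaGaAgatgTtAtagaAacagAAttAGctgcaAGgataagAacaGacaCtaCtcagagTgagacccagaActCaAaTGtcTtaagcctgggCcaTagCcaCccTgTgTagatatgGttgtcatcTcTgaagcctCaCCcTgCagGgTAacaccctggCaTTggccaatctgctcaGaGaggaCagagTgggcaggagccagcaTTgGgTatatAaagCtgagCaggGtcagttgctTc
The 2 α-globin windows are the same sequence, offset by 3 bases, with 247 of 247 overlapping bases identical. In the β-globin pair 185 of 239 aligned bases are identical (77.4%). DpnII sites (GATC, which reads the same on both strands) occur 0 times in both α-globin windows and in that of Hbb-bt and 1 time in that of Hbb-bs, while 41.9% of the 32851 promoter windows of this length hold at least 1.

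From 200 ng the libraries held 14774 to 14927 interactions at α-globin, 16179 to 16658 at β-globin and 6778 to 7083 at Slc25a37. From 50 ng they held 5140 to 5495, 5909 to 6221 and 2539 to 2639, in the same order. The mean total was thus 2.81-fold (α-globin), 2.70-fold (β-globin) and 2.67-fold (Slc25a37) higher from 200 ng, for a 4-fold difference in input, and the libraries of the inputs did not overlap at any viewpoint (exact two-sided permutation test, p = 0.1 at each, which is the smallest p that 3 against 3 libraries allow). No comparison of single values between the inputs in these 6 libraries can therefore pass a threshold of 0.05. For each difference below, the range over the 9 pairs of a 50 ng and a 200 ng library is given as its interval, which is an exact 90% interval of a shift for groups of this size. The 95% Wilson interval of a cis percentage was at most 0.760 percentage points to either side in a 200 ng globin library and 1.82 points in a 50 ng Slc25a37 library. Such intervals cover counting error only and take every interaction as independent.

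The cis percentage differed little between the inputs, and not in one direction at the 3 viewpoints. At α-globin it was 66.2%, 66.5% and 66.9% in the 200 ng libraries and 68.3%, 67.8% and 67.1% in the 50 ng libraries. All 50 ng libraries lay above all 200 ng libraries there, by 1.22 percentage points on average (pair differences from 0.191 to 2.10, exact permutation test, p = 0.1). At β-globin it was 63.5%, 63.3% and 63.0% from 200 ng and 61.0%, 62.2% and 63.2% from 50 ng. The mean difference was -1.15 points (from -2.59 to 0.227, exact permutation test, p = 0.2), the highest 50 ng library lay within the 200 ng range, and without replicate 1 of 50 ng the difference was -0.56 points. At Slc25a37 it was 67.8%, 68.7% and 67.4% from 200 ng and 66.9%, 67.8% and 67.4% from 50 ng, a mean difference of -0.56 points with overlapping libraries (from -1.72 to 0.402, exact permutation test, p = 0.4), or -0.21 points without replicate 2 of 200 ng. After Benjamini-Hochberg adjustment over the 3 viewpoints the p-values were 0.3, 0.3 and 0.4. The level of the cis percentage depends on trans entries that list the start and end of a fragment of the viewpoint's own chromosome, which held 29.8% to 32.7% of trans interactions at α-globin, 20.6% to 22.4% at β-globin and 14.2% to 16.8% at Slc25a37. Without them the mean was 74.0% from 200 ng and 75.3% from 50 ng at α-globin, 68.8% and 67.5% at β-globin, and 71.4% and 71.0% at Slc25a37, and the differences were 1.26, -1.35 and -0.40 points (exact permutation test, p = 0.1, 0.1 and 0.6). Counted in cis, they left differences of 1.10, -1.28 and -0.31 points (exact permutation test, p = 0.1, 0.1 and 0.6). At β-globin the libraries of the inputs did not overlap in either case. Without 19 trans entries longer than 100 kb, which held 1303 of the 24967 trans interactions there, the difference was -1.02 points. The spread between libraries was larger at 50 ng for both globin viewpoints (SD 0.638 against 0.326 points at α-globin and 1.15 against 0.265 at β-globin). At Slc25a37 it was smaller at 50 ng (SD 0.439 against 0.639 points).

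**Figure D1:**
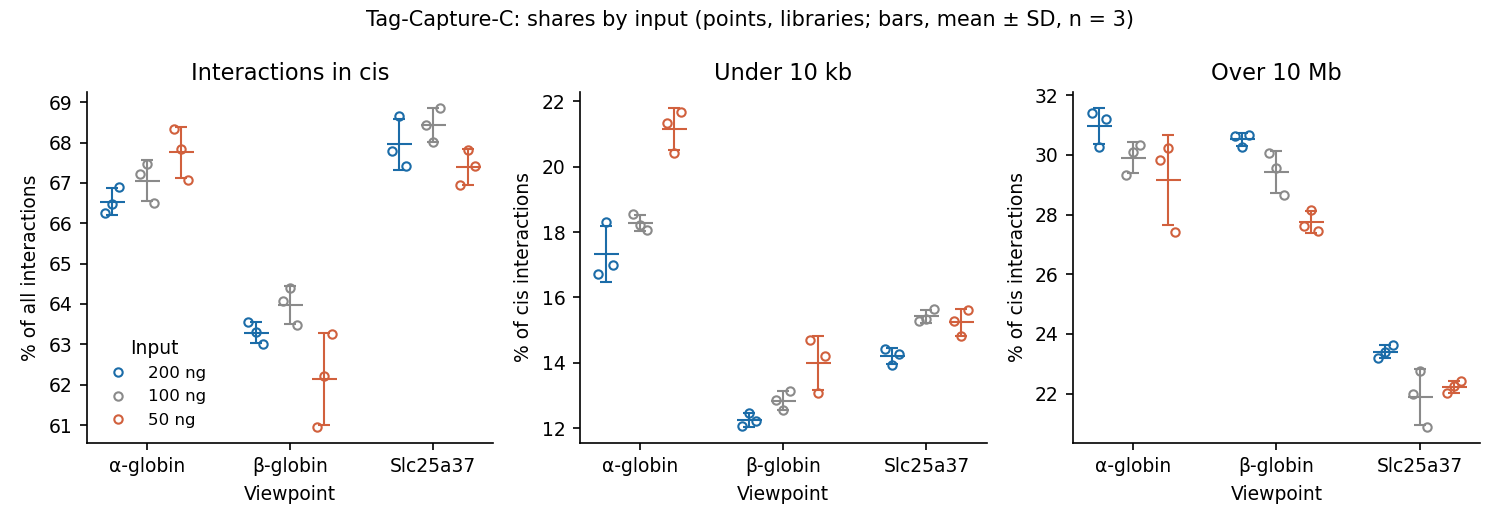
Percentage of all interactions that were in cis (left), and percentages of cis interactions under 10 kb (middle) and over 10 Mb (right) from the viewpoint, for Tag-Capture-C at 200, 100 and 50 ng. Points are libraries and bars the mean ± SD (n = 3). The 50 ng libraries lie above the 200 ng libraries under 10 kb and below them over 10 Mb at the 3 viewpoints, while the cis percentage moves in different directions.

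Within cis, the 50 ng libraries held a larger part of their interactions close to the viewpoint. The local percentage of cis was 51.8%, 53.1% and 52.8% from 200 ng and 55.2%, 54.8% and 57.2% from 50 ng at α-globin. It was 46.8%, 47.3% and 45.6% against 51.0%, 48.0% and 50.0% at β-globin, and 52.1%, 51.0% and 52.5% against 52.6%, 54.6% and 53.9% at Slc25a37. All 50 ng libraries lay above all 200 ng libraries at each viewpoint. The mean differences were 3.19 percentage points at α-globin (pair differences from 1.71 to 5.41), 3.08 at β-globin (from 0.705 to 5.41) and 1.86 at Slc25a37 (from 0.149 to 3.66), each with p = 0.1 in the exact permutation test and 0.1 after adjustment over the 3 viewpoints. The 50 and 200 ng libraries thus differed in the same direction at 3 viewpoints, but these viewpoints were read in the same 6 libraries and are not separate experiments. The median distance of a library's cis interactions was 97.6 to 118 kb from 200 ng and 64.7 to 72.6 kb from 50 ng at α-globin. It was 586 to 1131 kb against 179 to 452 kb at β-globin, and 134 to 206 kb against 79.2 to 110 kb at Slc25a37.

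Cis interactions were then divided over 7 distance bins. The libraries of the inputs did not overlap in 8 of the 21 combinations of bin and viewpoint (38.1%), which were the nearest and the farthest bin at each viewpoint and a further bin at each globin locus. Under 10 kb the share of cis was 16.7%, 18.3% and 17.0% from 200 ng and 21.3%, 20.4% and 21.7% from 50 ng at α-globin, 3.82 points apart (from 2.13 to 4.96). It was 12.1%, 12.5% and 12.2% against 14.7%, 13.1% and 14.2% at β-globin, 1.74 points apart (from 0.610 to 2.63). It was 14.4%, 13.9% and 14.3% against 15.3%, 14.8% and 15.6% at Slc25a37, 1.02 points apart (from 0.374 to 1.68). At distances over 10 Mb the order was the other way. The share was 31.4%, 30.3% and 31.2% from 200 ng and 29.8%, 30.2% and 27.4% from 50 ng at α-globin, where the closest pair of libraries was 0.038 points apart and the mean difference of -1.80 points became -0.93 without replicate 3 of 50 ng. It was 30.6%, 30.3% and 30.7% against 27.6%, 28.2% and 27.5% at β-globin and 23.2%, 23.4% and 23.6% against 22.0%, 22.2% and 22.4% at Slc25a37, differences of -2.78 and -1.17 points. The remaining bins without overlap were 1 to 10 Mb at α-globin (-1.04 points) and 30 to 100 kb at β-globin (1.08 points). Each of the 8 had p = 0.1 in the exact permutation test, and 0.263 after adjustment over the 21 combinations, so that no bin passed a threshold.

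The 100 ng libraries of the same protocol lay between in part. Under 10 kb their means were 18.3% at α-globin, 12.8% at β-globin and 15.4% at Slc25a37, between the other inputs at the globin loci and above the 50 ng mean of 15.2% at Slc25a37. Over 10 Mb they were 29.9%, 29.4% and 21.9%, again between the others at the globin loci only. At α-globin the difference under 10 kb was found below the viewpoints, towards the enhancers (1.90 points, from 0.958 to 2.78), and between the promoters (1.59 points, from 0.639 to 2.25). Above them the libraries overlapped (0.32 points, from -0.292 to 0.912). At β-globin it lay mainly between the promoters (1.08 points, from 0.380 to 1.64). There it was 0.23 points below the viewpoints (from 0.170 to 0.297) and 0.43 above, with overlapping libraries above (from -0.014 to 0.774). At Slc25a37 it was 0.50 points below the viewpoint and 0.53 above it, with overlapping libraries above.

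The slope of the distance decay did not follow these shares. It was fitted per library to log10 interactions per kb against log10 distance, in 6 bins of equal log width per factor of 10, from 10 kb to 10 Mb, so that the nearest and the farthest bins above lie outside it. At α-globin it was -1.22, -1.22 and -1.23 from 200 ng and -1.22, -1.25 and -1.28 from 50 ng. At β-globin it was -1.07, -1.07 and -1.05 against -1.07, -1.06 and -1.06, and at Slc25a37 -1.10, -1.09 and -1.10 against -1.09, -1.13 and -1.11. The libraries overlapped at each viewpoint. The mean differences were -0.023 (from -0.052 to 0.014) at α-globin, -0.002 (from -0.024 to 0.014) at β-globin and -0.015 (from -0.044 to 0.011) at Slc25a37, with p = 0.4, 0.9 and 0.3 in the exact permutation test. In single bins of this fit the libraries did not overlap in 6 of the 54 combinations of bin and viewpoint (11.1%), in both directions. With 3 against 3 libraries a share of 0.1 is expected where the inputs do not differ. The bins that follow are therefore given as values only. In the bin centred at 38.3 kb at β-globin there were 387, 369 and 364 interactions per kb and per 100000 cis interactions from 200 ng and 449, 431 and 471 from 50 ng. In the bin centred at 82.5 kb it was the other way, with 71.4, 77.2 and 78.6 against 55.0, 54.6 and 56.2. The others were at 1778 kb at α-globin (lower at 50 ng) and at 562, 2610 and 3831 kb at Slc25a37 (lower, higher and lower). A change in slope of more than 0.052 in either direction thus lies outside these ranges at the 3 viewpoints.

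**Figure D2:**
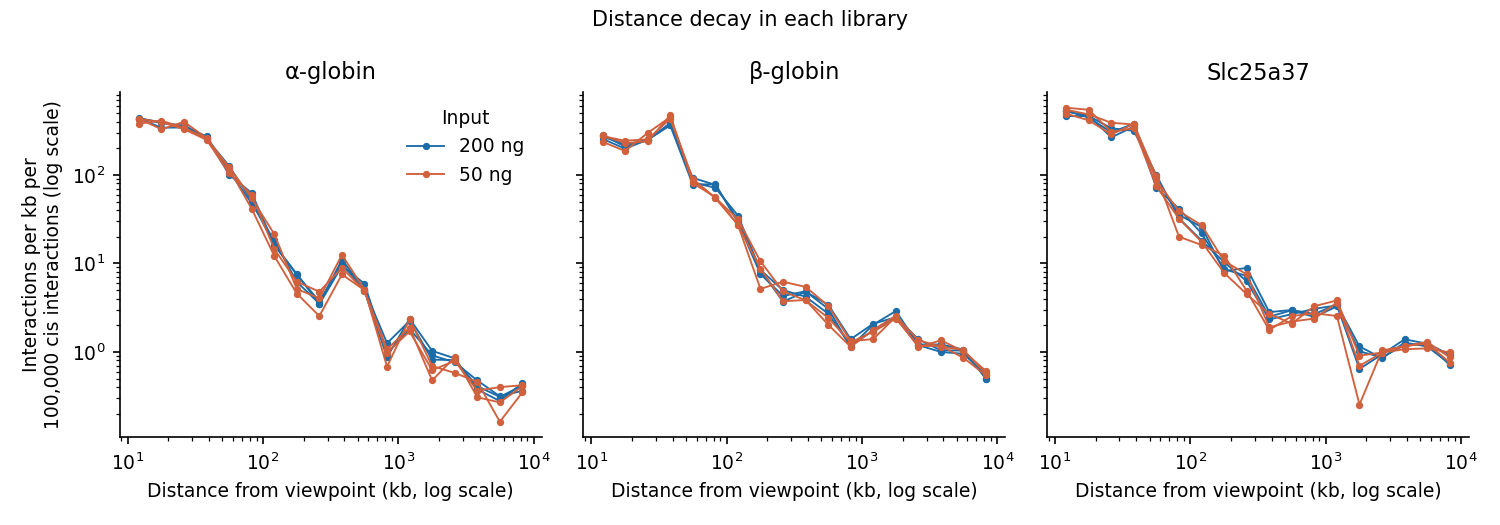
Interactions per kb and per 100000 cis interactions of a library, against distance from the viewpoint, both on log scales, with 1 line per Tag-Capture-C library at 200 ng and 50 ng. The lines of both inputs run close together and scatter more at large distances, with slopes from -1.28 to -1.05 over all libraries and viewpoints. They do not overlap at β-globin at 38.3 kb (higher from 50 ng) and 82.5 kb (lower from 50 ng). Such bins were 6 of 54 (11.1%), near the share of 0.1 expected where the inputs do not differ.

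The local profile kept the asymmetry of each locus at both inputs. At α-globin the interactions 10 to 40 kb below the viewpoints, on the enhancer side, numbered 1747, 1605 and 1718 from 200 ng against 401, 418 and 422 at the same distance above. From 50 ng they numbered 655, 597 and 638 against 110, 132 and 137. The ratio of the sides was 3.84 to 4.36 from 200 ng and 4.52 to 5.95 from 50 ng, without overlap, and on the log2 scale the difference was 0.29 (pair differences from 0.05 to 0.63, exact permutation test, p = 0.1), or 0.17 without replicate 1 of 50 ng. At β-globin the side of the locus control region held 3.30 to 3.95 times the interactions of the other side from 200 ng and 3.60 to 4.62 times from 50 ng. As log2 of below over above, that difference was -0.19 (from -0.48 to 0.13, exact permutation test, p = 0.3). At Slc25a37 the higher-coordinate side held 1.89 to 2.02 times the interactions of the other from 200 ng and 1.69 to 1.94 times from 50 ng, a log2 difference of 0.10 (from -0.04 to 0.26, exact permutation test, p = 0.2). The 20 fragments that held most local interactions in the 100 ng libraries, which belong to neither group, took 17.5%, 19.8% and 18.0% of local interactions from 200 ng and 21.1%, 21.0% and 20.5% from 50 ng at α-globin. They took 19.3%, 18.4% and 19.1% against 21.0%, 21.3% and 19.9% at β-globin, again without overlap, and 18.7%, 18.2% and 19.7% against 22.3%, 18.9% and 19.6% at Slc25a37, with overlap (p = 0.1, 0.1 and 0.3, exact permutation test).

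**Figure D3:**
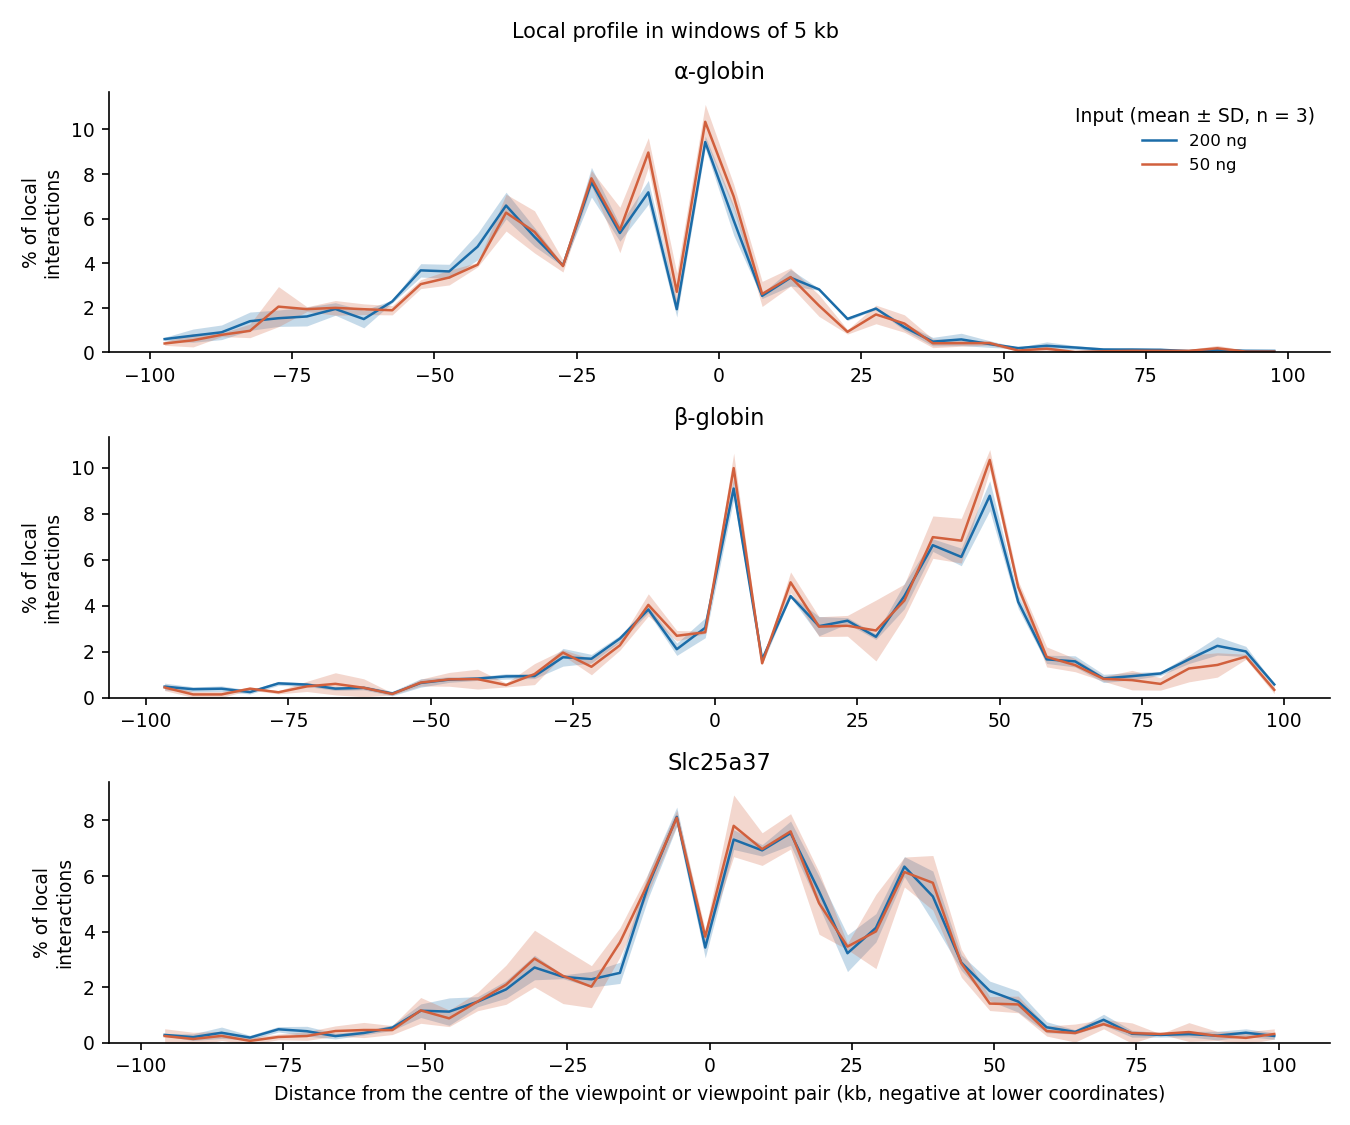
Percentage of a library's local interactions in each 5 kb window within 100 kb of the centre of the viewpoint or viewpoint pair, as the mean ± SD of 3 Tag-Capture-C libraries at 200 ng and at 50 ng. The peaks stand at the same distances at both inputs, and 0 of the 5 kb windows tested differed at an adjusted p under 0.05. Before adjustment 4 of 34 at α-globin, 9 of 48 at β-globin and 0 of 24 at Slc25a37 were under 0.05 (edgeR).

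Differences at single local fragments were assessed by edgeR's quasi-likelihood test, relative to the other fragments of the locus. Of the local fragments with a mean count of at least 10, the test called 0 of 114 at α-globin (0%), 0 of 98 at β-globin (0%) and 0 of 44 at Slc25a37 (0%) after adjustment (threshold 0.05). Before adjustment edgeR had 7, 4 and 4 fragments under 0.05, and DESeq2, which also called 0 at each viewpoint, had 3, 1 and 1. These fragments are the well-covered part of the 1106, 1083 and 1138 listed. With the 200 ng counts thinned to the 50 ng depth, which left 56 to 63, 47 to 52 and 5 to 9 fragments to test, 20 draws gave 0 calls at both globin loci and 0 to 2 at Slc25a37. In windows of 5 kb, 0 of 34, 0 of 48 and 0 of 24 were called. Before adjustment 4, 9 and 0 of these windows were under 0.05 (edgeR), and 6 of the 9 at β-globin were higher at 50 ng. The window with the smallest adjusted p was chr7:111015001-111020000 at β-globin, on the side of the locus control region, with 473, 410 and 393 interactions from 200 ng and 191, 190 and 200 from 50 ng. Its log2 ratio of 50 over 200 ng was 0.35 ± 0.11 (SE, adjusted p = 0.088, edgeR). The adjacent windows, chr7:111010001-111015000 and chr7:111020001-111025000, had log2 ratios of 0.28 ± 0.12 and 0.32 ± 0.14 (edgeR adjusted p = 0.180 for both).

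The 3 fragments with the highest counts at α-globin in the 100 ng libraries lay within 4.05 kb of a promoter. The fragment chr11:32180845-32181398, 2.43 kb below a viewpoint, held 50, 70 and 68 interactions from 200 ng and 39, 20 and 35 from 50 ng. As a share of local interactions that was 0.976%, 1.34% and 1.30% against 2.01%, 1.04% and 1.66%, with overlapping libraries (log2 0.30 ± 0.29, edgeR adjusted p = 0.819). The others, chr11:32187033-32187364 and chr11:32187365-32187831, lay between the promoters and had log2 ratios of -0.05 ± 0.29 and 0.02 ± 0.26. The fragment with the smallest p at α-globin was chr11:32214355-32215332, 18.5 kb above the nearer viewpoint and so on the side away from the enhancers. It held 15, 28 and 13 interactions from 200 ng and 1, 3 and 1 from 50 ng, without overlap in its share (0.249% to 0.535% against 0.047% to 0.156% of local interactions). The log2 ratio was -2.13 ± 0.62 and did not pass after adjustment (edgeR adjusted p = 0.281). The next on that side, chr11:32203777-32204331, held 18, 14 and 22 against 1, 3 and 3 (log2 -1.62 ± 0.55, edgeR adjusted p = 0.412). Both reached the required mean count of at least 10 only through their 200 ng counts. Fragments with the smallest p, here and at the other viewpoints, were picked by this same comparison. A lack of overlap in their shares is therefore no separate support. Among fragments with a higher share at 50 ng, chr11:32179642-32179816, 3.82 kb below a viewpoint, had the smallest p, with 26, 24 and 23 interactions against 18, 13 and 17 (log2 0.69 ± 0.30, edgeR adjusted p = 0.711). The second, chr11:32126673-32128419, 56.0 kb below and on the enhancer side, held 8, 19 and 11 against 9, 5 and 18, with overlapping shares (log2 1.04 ± 0.48).

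At β-globin, chr7:110974331-110974901, 1.60 kb from a promoter, held 71, 75 and 76 interactions from 200 ng and 25, 27 and 39 from 50 ng. Its share was 1.43% to 1.64% of local interactions against 1.29% to 2.03%, a log2 ratio of 0.01 ± 0.22. The fragment chr7:111009748-111010461, 33.9 kb above the viewpoints on the side of the locus control region, held 42, 57 and 37 against 17, 15 and 21, a log2 ratio of -0.06 ± 0.27. The shares of this fragment overlapped between the inputs (0.796% to 1.16% against 0.851% to 1.09% of local interactions). The third by count, chr7:110973665-110974330, had a log2 ratio of 0.09 ± 0.24. The smallest p belonged to chr7:110993439-110993929, 17.5 kb above the viewpoints, with 19, 23 and 26 interactions against 3, 4 and 5 (log2 -1.19 ± 0.51, edgeR adjusted p = 0.717). It too reached the required mean count of at least 10 only through its 200 ng counts. It was followed by chr7:110973295-110973475 between the promoters (log2 -0.69 ± 0.34). The fragments with the smallest p that had a higher share at 50 ng were chr7:110964282-110964349 (log2 0.73 ± 0.39) and chr7:110990422-110991220 (log2 0.76 ± 0.45), both with an edgeR adjusted p of 0.717.

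At Slc25a37 the 3 leading fragments, all within 4.55 kb of the viewpoint, had log2 ratios between -0.41 and 0.08. The first, chr14:69900630-69901406, held 25, 33 and 28 interactions from 200 ng and 14, 13 and 10 from 50 ng, and its shares overlapped (0.999% to 1.39% against 1.04% to 1.51%). The smallest p there belonged to chr14:69906257-69906473, 3.09 kb above the viewpoint, with 29, 25 and 29 interactions against 19, 13 and 23. Its share was 1.05% to 1.17% of local interactions from 200 ng and 1.38% to 2.40% from 50 ng, without overlap (log2 0.70 ± 0.21, edgeR adjusted p = 0.278). With replicate 2 of 50 ng left out, edgeR called 1 fragment at this viewpoint. The second with a higher share, chr14:69915017-69915442, held 7, 17 and 24 against 15, 9 and 11 (log2 0.83 ± 0.33). With lower shares, chr14:69922307-69922666 and chr14:69918240-69918644, 19.2 and 15.2 kb above, had log2 ratios of -1.02 ± 0.48 and -0.93 ± 0.47, with an edgeR adjusted p of 0.385 for both. Both of these also reached the required mean count of at least 10 only through their 200 ng counts.

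The similarity of whole local profiles was measured as Pearson's r between libraries over all listed local fragments. Because r depends on depth, interactions of the 200 ng libraries were drawn at random without replacement down to the mean 50 ng total of the viewpoint, 100 times. Without this step the mean r between replicates was 0.916 from 200 ng and 0.838 from 50 ng at α-globin, 0.917 and 0.820 at β-globin, and 0.894 and 0.800 at Slc25a37. After it, the 200 ng replicates had 0.848 (pairs from 0.838 to 0.854) at α-globin, 0.841 (0.838 to 0.844) at β-globin and 0.771 (0.767 to 0.773) at Slc25a37. The gap between the inputs thus shrank from -0.078 to -0.010 at α-globin and from -0.097 to -0.021 at β-globin, and at Slc25a37 the 50 ng replicates then had the higher r, by 0.029 (p = 0.4, 0.1 and 0.2, exact permutation test, and 0.4, 0.3 and 0.3 after adjustment over the viewpoints). The r between a thinned 200 ng library and a 50 ng library averaged 0.841 (9 pairs, from 0.817 to 0.851), 0.829 (0.816 to 0.845) and 0.768 (0.750 to 0.791). Profiles of different inputs were therefore about as alike as replicates of the same input at the globin loci, and at Slc25a37 as alike as replicates of the thinned 200 ng libraries. In windows of 5 kb all 3 kinds of mean r were between 0.966 and 0.982.

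**Figure D4:**
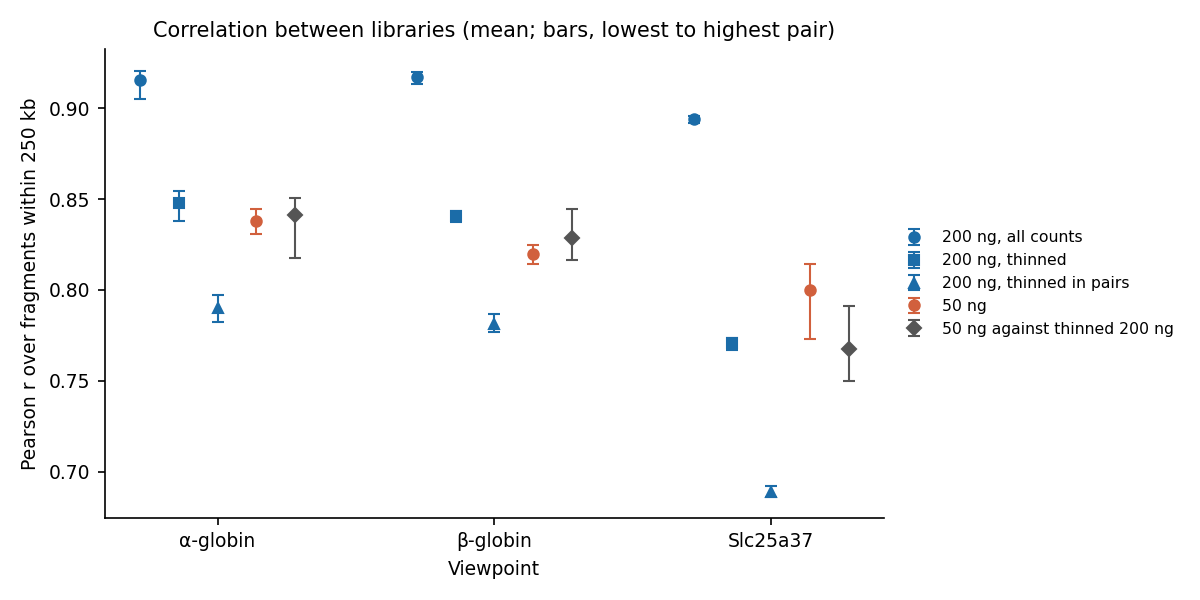
Pearson's r over fragments within 250 kb, between replicates from 200 ng with all counts, with counts thinned to the 50 ng depth singly or in pairs, between replicates from 50 ng, and between a 50 ng and a thinned 200 ng library. Points are means and bars run from the lowest to the highest pair of libraries. Single thinning brings the 200 ng values near the 50 ng values, and thinning in pairs brings them below.

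Thinning takes every interaction as independent, and the counts depart from this. Among trans fragments with at least 1 interaction in a library, the most common number at α-globin was exactly 2, held by 55.4%, 56.0% and 54.3% of them from 200 ng and 50.6%, 52.5% and 49.3% from 50 ng, while 35.8% to 39.2% held 1. At β-globin 38.6% to 39.8% held exactly 2 from 200 ng and 34.8% to 38.9% from 50 ng. At Slc25a37, where a single promoter was the viewpoint, 11.1% to 12.9% did from 200 ng and 13.0% to 14.9% from 50 ng, and 83.1% to 87.4% held 1. In cis beyond 1 Mb the means were 57.2% (200 ng) and 58.1% (50 ng) at α-globin, 42.1% and 42.2% at β-globin, and 13.1% and 16.8% at Slc25a37. In trans and in cis beyond 1 Mb, fragments with exactly 2 were thus most common at α-globin and least common at Slc25a37. Among local fragments the means were 21.9%, 18.8% and 16.9% from 200 ng at α-globin, β-globin and Slc25a37. From 50 ng they were 23.6%, 23.7% and 18.5% in the same order. In LI-Capture-C, the protocol described below, the means in trans were 40.9% (200 ng) and 24.6% (50 ng) at α-globin and 36.2% and 20.3% at β-globin. They were 27.0% and 17.6% at Slc25a37, so that fragments with exactly 2 were more common there than in Tag-Capture-C at both inputs. A relation to the identity of the promoter windows was not tested. Whether a joint read into both promoters of a pair was counted for each of them was not tested, since the reads were not analysed here.

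**Figure D5:**
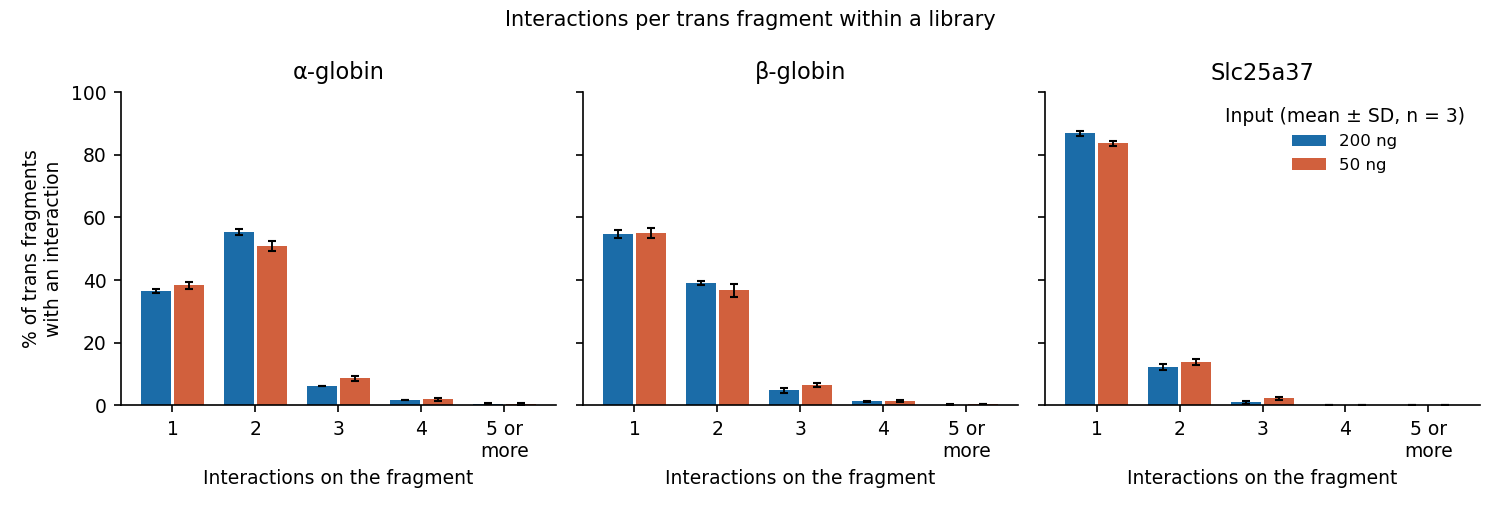
Percentage of the trans fragments with at least 1 interaction in a library that held 1, 2, 3, 4, or 5 or more, as the mean ± SD of 3 Tag-Capture-C libraries at 200 ng and at 50 ng. At α-globin fragments with 2 outnumber those with 1 at both inputs, at β-globin they are fewer, and at Slc25a37 fragments with 1 make up 83.1% to 87.4%.

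A trans fragment with an interaction held on average 1.75 ± 0.003 interactions from 200 ng and 1.76 ± 0.025 from 50 ng at α-globin (SD, n = 3), 1.53 and 1.56 at β-globin, and 1.15 and 1.19 at Slc25a37, while the totals differed by 2.67-fold to 2.81-fold. Drawing the 200 ng interactions singly down to the lowest 50 ng number takes such pairs apart, to an expected 1.19, 1.17 and 1.05 per fragment. The number of trans fragments was then lower at 50 ng (950 against 1370 at α-globin, 1374 against 1811 at β-globin and 691 against 776 at Slc25a37). This number depends on how interactions are drawn and by itself does not measure a difference between the inputs. How much of it comes from the drawing was not tested. With interactions drawn in pairs at both inputs, an odd one being drawn alone, the numbers came closer. They were 984 ± 3.22 from 200 ng and 931 ± 7.22 from 50 ng at α-globin (a change of -5.43%), 1433 ± 13.1 and 1361 ± 13.5 at β-globin (-5.05%), and 718 ± 5.61 and 687 ± 5.51 at Slc25a37 (-4.32%), without overlap at any of them (exact permutation test, p = 0.1 at each). Among local fragments the same drawing gave changes of -6.60%, -3.14% and 5.18%, which differ in sign between the viewpoints (exact permutation test, p = 0.1, 0.2 and 0.1). These drawings were chosen after the counts had been seen.

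A pair of trans interactions of the same library shared a fragment more often than a pair from different libraries of an input, 10.5 times as often from 200 ng and 11.5 times from 50 ng at α-globin, 9.73 and 10.3 times at β-globin, and 3.25 and 4.49 times at Slc25a37. The exact permutation test of the difference between the inputs in this excess gave p = 0.7, 1 and 0.7. Its assignments mix libraries of different inputs, which shared fragments less often than libraries of 1 input, in trans and in cis over 10 Mb. A large p there therefore does not show that the excess was alike at both inputs. Within a library, 21.1 (200 ng) and 63.3 (50 ng) per 100000 trans pairs shared a fragment at α-globin. These values were 14.5 and 41.4 at β-globin and 12.7 and 43.3 at Slc25a37, without overlap (exact permutation test, p = 0.1 at each). In cis over 10 Mb the excess was 7.35 times from 200 ng and 11.8 times from 50 ng at α-globin, 4.99 and 11.8 times at β-globin, and 2.60 and 4.02 times at Slc25a37 (exact permutation test, p = 0.1, 0.1 and 0.2). Among local fragments it was 1.04 and 1.07, 1.03 and 1.08, and 1.01 and 1.01 times (exact permutation test, p = 0.1, 0.1 and 1). Trans pairs from libraries of different inputs shared a fragment least often. Per 100000 pairs that was 1.12 at α-globin, against 2.01 between 200 ng and 5.48 between 50 ng libraries. It was 0.324 against 1.49 and 4.03 at β-globin, and 0.665 against 3.91 and 9.64 at Slc25a37. Libraries of an input may thus not be independent at such fragments, which limits the p-values there. The cause was not tested.

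When the 200 ng interactions were drawn in pairs instead, with an odd one on a fragment drawn alone, the mean r between thinned 200 ng replicates was 0.790 at α-globin, 0.781 at β-globin and 0.689 at Slc25a37, below the 50 ng values at each viewpoint (exact permutation test, p = 0.1 at each). This choice was made after the counts had been seen, and it also ties together separate interactions that fell on the same local fragment, most of all at Slc25a37. The sign of the difference in r between the inputs at the globin loci thus depends on how the depth is matched. With each pair of interactions on a fragment counted once, the share of cis under 10 kb still differed by 3.66 points at α-globin, 1.75 at β-globin and 1.07 at Slc25a37, without overlap (exact permutation test, p = 0.1 at each). The spread of local counts between replicates, as the index of dispersion over fragments with at least 15 interactions in the 3 libraries, was 1.91 from 200 ng and 1.80 from 50 ng at α-globin, 1.60 and 1.72 at β-globin, and 1.14 and 0.850 at Slc25a37, with 241 and 134, 243 and 101, and 146 and 50 fragments. Counting error alone gives an index of 1 for interactions that are independent and one nearer 2 where they come in pairs, so that the globin values cannot be read against 1.

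LI-Capture-C, which breaks the 3C library by sonication and ligates the adaptors, was run at the same inputs, 3 libraries each. Its cis percentage was lower at 50 ng than at 200 ng by 3.72 points at α-globin, 8.26 at β-globin and 7.89 at Slc25a37, while the Tag-Capture-C differences were 1.22, -1.15 and -0.56 points. The changes with input thus differed between the protocols by 4.93, 7.11 and 7.32 points (p = 0.1, 0.005 and 0.015, exact permutation test that exchanged protocol labels within each input). After adjustment over the 24 combinations of 8 measures and 3 viewpoints these were 0.264, 0.08 and 0.09. The local percentage of cis was higher at 50 ng in LI-Capture-C too, by 3.26 points at α-globin, 0.29 at β-globin and 2.28 at Slc25a37, and the test of the difference between the protocols gave p = 0.965, 0.43 and 0.845 (exact permutation test). In LI-Capture-C the share of cis under 10 kb changed by 1.97 points at α-globin, -0.37 at β-globin and 0.60 at Slc25a37, against 3.82, 1.74 and 1.02 points in Tag-Capture-C (exact permutation test of the difference, p = 0.065, 0.11 and 0.815). The test takes the protocol labels as exchangeable at each input. A level difference between the protocols that is the same at both inputs therefore also raises its p. It does not settle whether the near share depends more on input in Tag-Capture-C than in LI-Capture-C.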

How the data were processed

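Capture-C was performed by the authors on 3C libraries of mouse erythroid cells, and the 3 low-input tables, 1 per viewpoint with 18 libraries each, were used here. The deposited values are raw counts of unique interactions per DpnII fragment, without normalization. Per the submitters' processing notes the tools were Trim Galore and Bowtie and the build was mm9, with versions not given in the sources used here. The study's methods describe removal of duplicates with identical or nearly identical ends, so that totals depend on that filter. Samples were grouped by their titles, and the comparison, measures and lists were chosen with earlier results of these data known.

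Distances were taken from the fragment's centre to the centre of the nearer viewpoint, and shares were computed per library from the counts. Groups of 3 were compared with exact two-sided permutation tests over 20 assignments, adjusted by Benjamini-Hochberg within each family of measures. Local fragments with a mean count of at least 10 were compared by the quasi-likelihood method in edgeR 4.0.16 (TMM scaling, R 4.3.3), and with DESeq2 1.42.0 as an alternative. Named fragments were the 3 with the highest counts at 100 ng and, in each direction, the 2 with the smallest p. Thinning used 100 seeded draws without replacement, and the scripts were tested on simulated data. Alternatives covered scaling, count filters, distance limits, window size, thinning, a replicate block and leaving out each library. Depth per library is the total of its counts, 2539 to 16658, and intervals cover counting error only. No 2 libraries were identical.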

Additional observations from a re-analysis of the deposited data

Results flagged for a closer look

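In 5 of 24 tests the change from 200 to 50 ng differed between Tag-Capture-C and LI-Capture-C at an unadjusted p under 0.05 in the exact permutation test over 400 assignments, and none had an adjusted p under 0.05. At β-globin the change in the cis percentage was higher in Tag-Capture-C by 7.11 percentage points (p = 0.005, adjusted p = 0.08), and at Slc25a37 by 7.32 points (p = 0.015, adjusted p = 0.09), by the exact permutation test. The change in the local percentage of all interactions was higher by 5.52 points at β-globin and 3.88 points at Slc25a37 (exact permutation test, p = 0.01 and adjusted p = 0.08 for both). That percentage is the product of the cis percentage and the local percentage of cis. Its tests are therefore not separate from those of the cis percentage. The change in the share of the 20 leading local fragments at β-globin was higher by 2.96 points (exact permutation test, p = 0.025, adjusted p = 0.12).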

How the results depend on the processing

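Of 612 alternative values for 63 results, 564 kept their direction and side of the threshold or moved within the spread, and 34 changed sign. For differences between the inputs the exact p cannot fall under 0.1. In those results only a change of sign could be flagged, and keeping the side of the threshold says nothing. Directions of the local share of cis and of the shares under 10 kb and over 10 Mb held at each viewpoint without any single library. With each pair of interactions on a fragment counted once, the difference was 0.048 points at 30 to 100 kb for α-globin, 0.051 at 100 to 250 kb for β-globin, and 0.033 for the cis percentage and 1.55 at 30 to 100 kb for Slc25a37, all opposite in sign to the values with all interactions. The mean r between inputs was 0.873, 0.866 and 0.827 (α-globin, β-globin, Slc25a37) without thinning, 0.803, 0.745 and 0.726 on log2(value + 1), 0.976, 0.976 and 0.971 in 5 kb windows, and 0.811, 0.799 and 0.725 with 200 ng drawn in pairs. The difference in r between replicates turned to 0.0023 in 5 kb windows and 0.048 in pairs at α-globin, to 0.039 in pairs at β-globin, and to -0.094 without thinning and -0.0041 in 5 kb windows at Slc25a37. The cause was not tested.

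Leaving out 1 library gave these ranges where the sign or call changed. At α-globin they were -0.16 to 0.29 points at 10 to 30 kb, -0.57 to 0.033 at 100 to 250 kb, -0.67 to 0.00078 at 250 kb to 1 Mb, -0.15 to 0.49 (log2) for fragment sharing, and, against LI-Capture-C, -0.81 to 0.42 for the local share and -0.051 to 0.15 for the side ratio. At β-globin they were -0.0064 to 0.0051 for the slope, -0.385 to 0.11 at 100 to 250 kb, -0.70 to 0.038 at 250 kb to 1 Mb, -0.31 to 0.51 at 1 to 10 Mb, -0.0325 to 0.21 for sharing and -0.41 to -0.22 for the side ratio against LI-Capture-C. At Slc25a37 they were -0.59 to 0.475 at 30 to 100 kb, -0.69 to 0.195 at 100 to 250 kb, -0.65 to 0.30 at 1 to 10 Mb, 0 to 1 fragments called, and, against LI-Capture-C, -0.88 to 0.14 for the local share and -0.017 to 0.00245 for the slope.

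The replicate numbers were not taken to pair the libraries, since the 9 correlations of same-numbered deviations ran from -0.166 to 0.264 and the own number was highest in 2 of 9. With the replicate number as a block edgeR called 0 fragments at each viewpoint (5, 6 and 2 at an unadjusted p under 0.05), and the block leaves mean differences as they are, with 0.25 the smallest p of its exact sign-flip test. Totals of 2539 to 16658 interactions limit single fragments most at Slc25a37, where 44 were tested.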

Other observations

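Among trans fragments with interactions, 29.3% at α-globin, 22.9% at β-globin and 15.5% at Slc25a37 were listed with the interval of a fragment on the viewpoint's own chromosome.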
